A study of Mus musculus with 8 samples.

Results

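Ribosomal protein genes encode the protein parts of the cytosolic ribosome. The members here were all genes whose name in the array files follows the Rpl, Rps and Rplp pattern with a number, plus Rpsa, which gave 82 genes of 46610 genes and unnamed probes on the array. Of these, 50 belonged to the large subunit and 32 to the small subunit. They were measured in hippocampal total RNA of female C57BL6/J mice aged 8 weeks that had been housed for 4 weeks in an enriched environment. A first group of 4 samples came from mice given an anti-CD4 antibody, which is directed at the surface protein of helper T lymphocytes, and a second group of 4 came from mice given a control antibody. Strain, sex, age and housing were shared by both groups. The question was whether hippocampal expression differs after the anti-CD4 antibody. Whether each sample stands for a separate animal is not stated in the labels, and the p-values below therefore describe only the spread among these 8 samples, which could be technical.

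A ribosome holds a small subunit, which reads the messenger RNA, and a large subunit, which joins amino acids. Their proteins are needed in equal amounts, and their messages share a pyrimidine tract at the 5′ end that lets the mTORC1 pathway set their translation together. In neurons, ribosomes in dendrites supply the local protein synthesis on which lasting synaptic change depends. Ribosomal protein genes have many processed pseudogenes in mammalian genomes, so a probe for such a gene can match several places. RNA of whole tissue was measured, so fewer cells of a type and less RNA per cell cannot be told apart.

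The arrays carry 60-base probes, 188 of them for the members. The following probe pairs show how closely probes of the same member can resemble each other. Capitals mark bases that differ between the 2 probes where they overlap, and positions are those of the files on mm9.
Rpl7a, brightest probe, chr2:26768759-26768818, plus strand: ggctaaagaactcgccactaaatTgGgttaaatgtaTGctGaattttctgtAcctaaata
Rpl7a, other probe, chr2:26768759-26768818, plus strand: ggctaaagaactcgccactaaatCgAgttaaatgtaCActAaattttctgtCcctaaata
Rplp0, brightest probe, chr5:116013404-116013463, plus strand: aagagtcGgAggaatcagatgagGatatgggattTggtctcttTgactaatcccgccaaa
Rplp0, other probe, chr5:116013397-116013456, plus strand: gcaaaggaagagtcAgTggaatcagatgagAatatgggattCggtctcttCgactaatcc
Rps29, brightest probe, chr2:172335021-172335079, minus strand: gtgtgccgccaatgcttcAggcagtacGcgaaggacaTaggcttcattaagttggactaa
Rps29, other probe, chr2:172335003-172335062, minus strand: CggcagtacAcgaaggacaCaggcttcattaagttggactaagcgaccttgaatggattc
The Rpl7a pair shares a single position and differs at 6 of 60 bases. The Rplp0 pair differs at 5 of 53 overlapping bases and the Rps29 pair at 3 of 42.

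A further set is shown because it holds the member probes with the most negative difference, the Rpl30 probe named first, and the most positive, the Rps15 probe named first, beside other probes of their genes and of Rps6 and Rps16.
Rpl30, other probe, chr15:34372403-34372462, minus strand: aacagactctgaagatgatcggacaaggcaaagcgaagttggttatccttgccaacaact
Rpl30, brightest probe, chr15:34371013-34371072, minus strand: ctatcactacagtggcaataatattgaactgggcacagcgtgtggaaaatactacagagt
Rps15, other probe, chr10:79755554-79756394, plus strand: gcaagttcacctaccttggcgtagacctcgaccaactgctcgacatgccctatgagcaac
Rps15, brightest probe, chr10:79756716-79756775, plus strand: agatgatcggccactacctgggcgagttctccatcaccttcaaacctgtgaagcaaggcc
Rps6, brightest probe, chr4:86500748-86500807, minus strand: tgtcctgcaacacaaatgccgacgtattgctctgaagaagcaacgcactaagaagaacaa
Rps6, other probe, chr4:86501867-86502058, minus strand: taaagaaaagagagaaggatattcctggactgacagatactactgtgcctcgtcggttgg
Rps16, brightest probe, chr7:29137597-29137656, plus strand: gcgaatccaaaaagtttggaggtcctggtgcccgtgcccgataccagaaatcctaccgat
Rps16, other probe, chr7:29137530-29137589, plus strand: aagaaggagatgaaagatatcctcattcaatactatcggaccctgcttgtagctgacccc
The Rps15 probe named first and the second Rps6 probe span more of the genome than their own length, as a probe across an exon junction does. This held for 39 of the 188 member probes, counting those that span more than 70 bases.

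Values are log2 signals minus the 75th percentile of the array, and differences are anti-CD4 minus control. The brightest probe stood for a gene, among probes that were well above background on 4 or more arrays. By this filter 79 of the 82 members were tested, 47 of the large subunit and all 32 of the small subunit, and each of these was well above background on all 8 arrays. The other 3 members, Rpl3l, Rpl10l and Rpl39l, were well above background on none of the 8 arrays. All 3 are paralogues of a widely expressed ribosomal protein gene, Rpl3l being known from heart and skeletal muscle and Rpl10l and Rpl39l from testis. The other 3 paralogues in the set, Rpl7l1, Rpl22l1 and Rps27l, were tested.

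No ribosomal protein gene differed between the groups beyond the spread of the samples once p-values were adjusted. No member passed the test, limma with Benjamini-Hochberg adjustment over all 23624 features at a threshold of 0.05, and the smallest adjusted p of a member was 0.292. Over all features 0.0% passed, with a smallest adjusted p of 0.119. At an unadjusted p under 0.05, 4 members had a higher and 1 a lower mean in anti-CD4 samples, which is 6.33% of members, against 13.0% of all features. With the trend and robust options of eBayes 0 members and 2 of all features passed, and 6 members had a higher and 2 a lower mean at an unadjusted p under 0.05, which is 10.1% of members, against 13.6% of all features. Without these options the shares by direction were 5.06% higher and 1.27% lower in members, against 6.17% higher and 6.82% lower in all features. The groups did not overlap for 5 members, or 6.33%, against 8.19% of all features. The number of members with a higher mean at an unadjusted p under 0.05 depended on single arrays. It was 0 without anti-CD4 replicate 4, 1 without anti-CD4 replicate 1, 8 without anti-CD4 replicate 2, and 2 without anti-CD4 replicate 3, control replicate 1 or control replicate 4. With the 1 member lower in each of these fits, the share of members was 11.4%, against 9.42% of all features, without anti-CD4 replicate 2, the only array left out with which it was above that of all features. In the other fits named here it was 1.27% to 3.80% of members, against 9.28% to 15.8% of all features.

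The intervals given here describe the precision among these 8 samples only, in the scaling above and without adjustment over features. Member differences ran from -0.22 for Rpl17 to 0.21 for Rpl41, and their 95% confidence intervals lay between -0.39 and 0.42. The interval included 0 for 74 of 79 members and lay inside -0.3 to 0.3 for 57. The median SD within groups was 0.0976 for members, 0.144 for all features and 0.0960 for the brightest 10% of features.

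**Figure D1:**
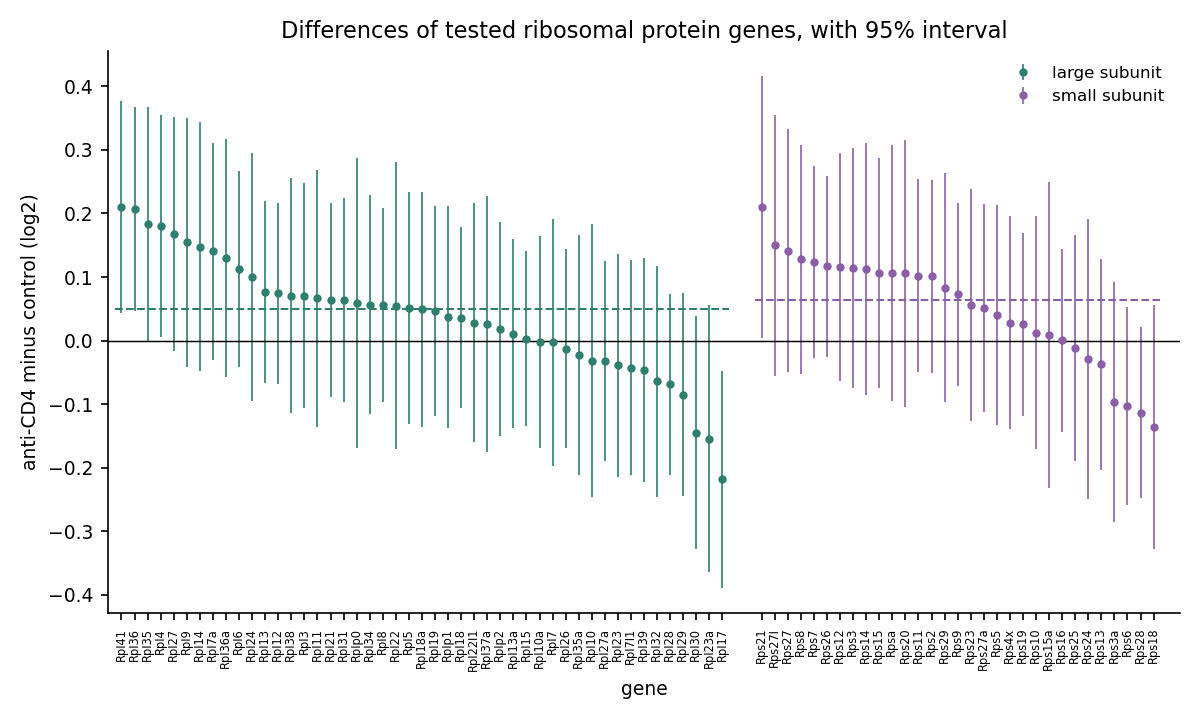
Difference in log2 value, anti-CD4 minus control, of 78 of the 79 tested ribosomal protein genes, with large subunit genes on the left and small subunit genes on the right, each ordered by size. Points are limma estimates, bars are 95% intervals, and dashed lines are the medians over all 79, 0.049 for the large and 0.064 for the small subunit. Most intervals include 0.

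Among the members with the smallest unadjusted p, Rpl36, a large subunit protein, had values of 7.10, 6.91, 6.89 and 7.06 in anti-CD4 samples 1 to 4, against 6.73, 6.75, 6.84 and 6.82 in control samples 1 to 4. All 4 anti-CD4 samples lay above all 4 control samples. The difference was 0.21 (SE 0.070), with a limma adjusted p of 0.292. Rpl41, a very short and basic large subunit peptide, had values of 7.94, 7.80, 7.87 and 7.99 in anti-CD4 samples, against 7.68, 7.56, 7.76 and 7.76 in control samples. The groups did not overlap here either, and the difference was 0.21 (SE 0.073) with a limma adjusted p of 0.298.

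Rpl4, a large subunit protein that lines part of the exit tunnel of the growing chain, had values of 5.76, 5.69, 5.72 and 5.79 in anti-CD4 samples, against 5.37, 5.64, 5.63 and 5.59 in control samples. Control sample 1 was the lowest and the other 3 lay close under the anti-CD4 samples. The small subunit gene Rps21 had values of 4.06, 4.043, 4.13 and 4.30 in anti-CD4 samples, against 3.74, 3.92, 4.041 and 3.99 in control samples. Its groups did not overlap, by a narrow margin between anti-CD4 sample 2 and control sample 3. Differences were 0.18 (SE 0.077) for Rpl4 and 0.21 (SE 0.090) for Rps21, with limma adjusted p of 0.372 and 0.379.

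Rpl17, a large subunit protein near the end of the exit tunnel, was the only member with a lower mean in anti-CD4 samples at an unadjusted p under 0.05. Its values were 5.80, 5.83, 5.71 and 5.97 in anti-CD4 samples, against 6.08, 6.13, 6.02 and 5.95 in control samples. Anti-CD4 sample 4 lay just above control sample 4, so the groups overlapped. The difference was -0.22 (SE 0.075), with a limma adjusted p of 0.295. Rps28, a small subunit protein near the path where the message leaves the ribosome, had 6.862, 6.74, 6.76 and 6.83 in anti-CD4 samples, against 6.864, 6.96, 6.91 and 6.92 in control samples. It was the only member whose anti-CD4 samples all lay below the control samples, and its difference of -0.11 (SE 0.059) had a limma adjusted p of 0.453.

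**Figure D2:**
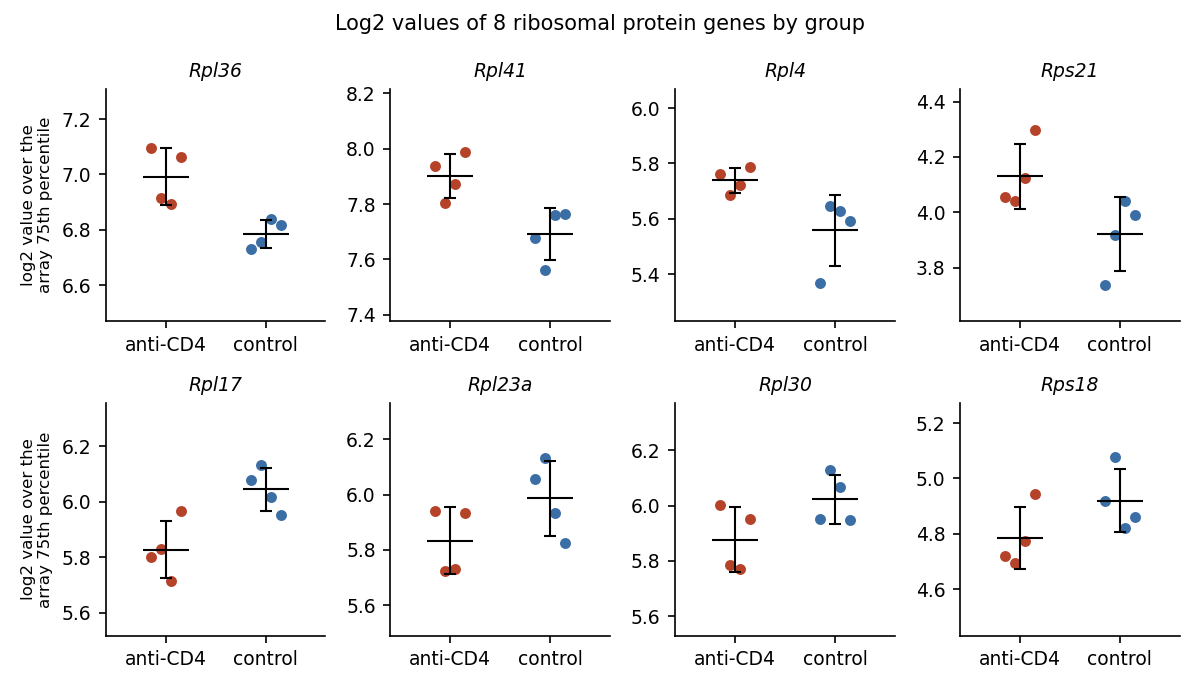
Log2 values over the array's 75th percentile of 8 ribosomal protein genes, those with the smallest p among higher means (upper row) and 4 with large negative differences (lower row), in the 4 anti-CD4 samples (left) and the 4 control samples (right) of each panel. Points are samples, and bars are the mean and SD. Groups are apart in the upper row, with differences of 0.18 to 0.21, and overlap in the lower row.

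Further members with positive differences, the next largest among those described here, were Rpl35 at 0.18 (SE 0.081), Rpl27 at 0.17 (SE 0.081), Rps27l at 0.15 (SE 0.090), Rps27 at 0.14 (SE 0.084), Rpl7a at 0.14 (SE 0.075) and Rps26 at 0.12 (SE 0.062). Rpl35 sits beside the tunnel exit. Its values were 7.71, 7.48, 7.54 and 7.71 in anti-CD4 samples, against 7.31, 7.47, 7.52 and 7.42 in control samples. Anti-CD4 sample 2 fell among the control samples, so the groups overlapped. Rps27l is a paralogue of Rps27 that p53 induces in response to DNA damage. Its values were 3.21, 3.01, 3.41 and 3.28 in anti-CD4 samples, against 3.07, 3.08, 3.01 and 3.15 in control samples, with the lowest anti-CD4 value equal to the lowest control value after rounding. No limma adjusted p in this group was under 0.387.

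On the negative side stood Rpl23a at -0.15 (SE 0.092), Rpl30 at -0.15 (SE 0.080), Rps18 at -0.14 (SE 0.084) and Rps6 at -0.10 (SE 0.068). Rpl23a is the protein at the tunnel exit to which the signal recognition particle docks. Its values were 5.94, 5.72, 5.73 and 5.94 in anti-CD4 samples, against 6.06, 6.13, 5.93 and 5.83 in control samples. Rpl30, which in yeast binds its own transcript and blocks its splicing, had 6.003, 5.78, 5.77 and 5.95 in anti-CD4 samples, against 5.95, 6.13, 6.07 and 5.95 in control samples. The groups overlapped for both genes.

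Rps6, the target of S6 kinase and a common readout of mTORC1 activity through its phosphorylation, had values of 6.14, 6.01, 6.07 and 6.14 in anti-CD4 samples, against 6.12, 6.31, 6.19 and 6.14 in control samples. Control sample 2 was the highest and anti-CD4 sample 2 the lowest. Phosphorylation itself was not measured here.

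The stalk proteins recruit translation factors to the large subunit. Rplp0, Rplp1 and Rplp2 had differences of 0.059 (SE 0.10), 0.037 (SE 0.077) and 0.018 (SE 0.074). Rplp0, often used as a reference gene in quantitative PCR, had 6.96, 6.71, 6.73 and 6.88 in anti-CD4 samples, against 6.73, 6.997, 6.72 and 6.61 in control samples, and its within-group SD of 0.119 in anti-CD4 and 0.166 in control samples was wider than for most members. Rplp1 varied little in anti-CD4 samples, with an SD of 0.0290, and more in control samples, with an SD of 0.133, where control sample 1 was low at 7.48.

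Several members have roles outside the ribosome. Rpl5 and Rpl11, which together with 5S RNA bind the p53 regulator Mdm2, differed by 0.051 (SE 0.080) and 0.067 (SE 0.089). Rpl22, whose loss in mice impairs the development of alpha-beta T lymphocytes, had 5.29, 4.97, 5.04 and 5.18 in anti-CD4 samples, against 4.86, 5.18, 5.14 and 5.09 in control samples. The groups overlapped over most of their range, and the difference was 0.055 with a 95% interval of -0.17 to 0.28. Its paralogue Rpl22l1, which Rpl22 represses in mice, differed by 0.028 with an interval of -0.16 to 0.22.

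Rpsa, also known as a laminin receptor precursor, differed by 0.11 (SE 0.088). Rps27a, which is made as a fusion with ubiquitin, differed by 0.052 (SE 0.072). Rpl13a, which in human myeloid cells also joins a complex that silences inflammatory messages, differed by 0.011 (SE 0.065). Rpl3, a core protein of the peptidyl transferase region, differed by 0.071 (SE 0.077), Rps4x by 0.028 (SE 0.073), Rpl10, which joins the large subunit late in its assembly, by -0.032 (SE 0.094) and Rpl29 by -0.085 (SE 0.070). The limma adjusted p of these members lay between 0.622 and 0.960.

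As a set, members lay slightly above 0. The difference was positive for 56 of 79 members, or 70.9%, against 51.8% of all features, and the median difference was 0.052, against 0.0068 for all features. The subunits were not tested against each other. The median was 0.049 for the large subunit, with 32 of 47 members positive, and 0.064 for the small subunit, with 24 of 32 positive. These medians moved with single arrays. The median over all members was 0.027 without anti-CD4 replicate 1, 0.031 without anti-CD4 replicate 4 and 0.027 without control replicate 1, and it was 0.083 without anti-CD4 replicate 2.

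The members moved together from array to array, and the groups overlapped in this common movement. Each member's values were set against its own mean over the 8 arrays. The median of these deviations was 0.11, -0.073, -0.045 and 0.093 in anti-CD4 samples 1 to 4, and -0.11, 0.024, 0.030 and -0.043 in control samples 1 to 4. Anti-CD4 samples 1 and 4 were high, anti-CD4 samples 2 and 3 and control samples 1 and 4 were low. In anti-CD4 samples 1 to 4, 74, 13, 19 and 76 of the 79 members lay above their own mean. In control samples 1 to 4 the numbers were 9, 48, 60 and 12. The median over all features ran from -0.026 to 0.034 over the 8 arrays, a narrower range.

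The highest value of a member lay in anti-CD4 sample 1 for 31 members, in anti-CD4 sample 4 for 25 and in control sample 2 for 19. The lowest lay in control sample 1 for 40 members and in anti-CD4 sample 2 for 21. Large and small subunit genes shared these shifts: the median deviation of the large subunit minus that of the small subunit was between -0.020 and 0.010 in anti-CD4 samples and between -0.0051 and 0.032 in control samples. After the member median of each array had been taken off, the median SD within groups was 0.0538, against 0.0976 before, and it was smaller for 69 of 79 members. The same step was not run for other bright features.

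**Figure D3:**
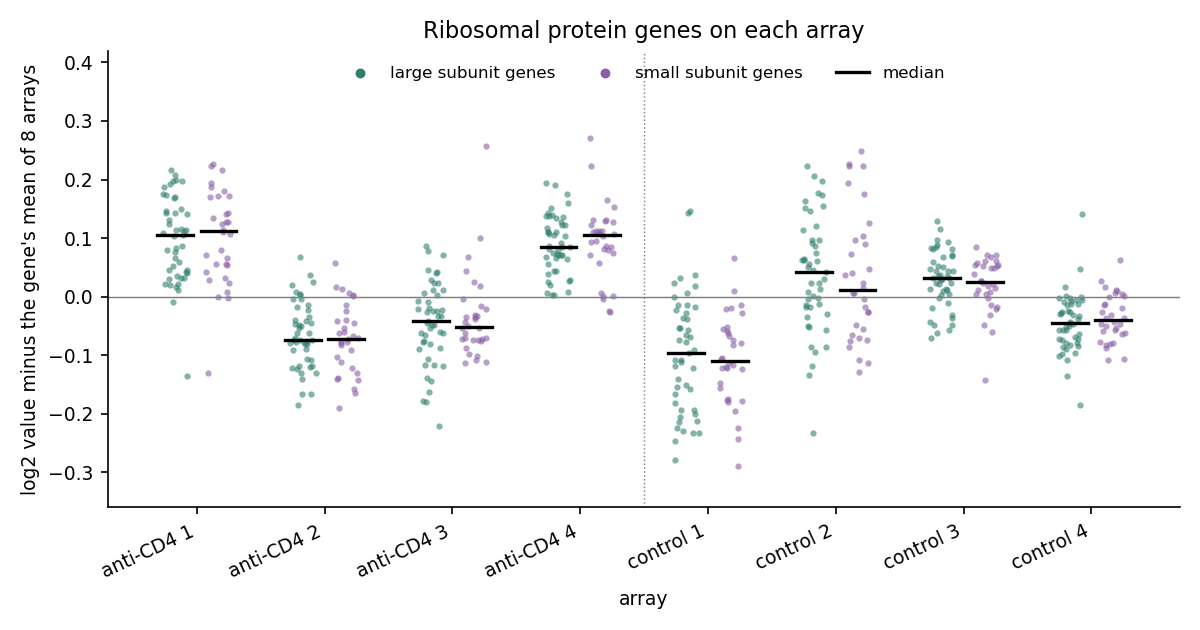
Log2 value minus the gene's own mean over 8 arrays for 47 large and 32 small subunit genes on each array, with anti-CD4 samples on the left and control samples on the right of the dotted line. Points are genes and black lines are medians. Both subunits sit high in anti-CD4 samples 1 and 4 and low in control sample 1.

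The members are among the brightest features of the array, and 76 of 79 lay in the brightest 10% by mean level. In that range, the median difference was 0.051 for the members and 0.034 for all features, of which 63.6% were positive. Deciles 2 to 6 of all features had medians between -0.011 and -0.00060, and decile 1, the dimmest, had 0.0082. In the brighter range the median of all features increased with level. At levels 4 to 5 the 5 members had a median of 0.051, against 0.025 for all features, and at levels 5 to 6 the 18 members had 0.028, against 0.032. At levels 6 to 7 the 31 members had 0.055, against 0.035, and at levels 7 to 8 the 22 members had 0.069, against 0.051. At levels 8 to 9 the single member, Rps14, had 0.11, against 0.10 for all features. The members thus lay above all features at most of these levels and below them at levels 5 to 6.

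The common shift depended on the scaling. Quantile normalization gave a member median of 0.011, with 43 of 79 positive, or 54.4%, against 51.0% of all features. All features in the brightest decile had a median of -0.00060, with 49.6% positive. The authors' deposited table, which is brought close to 1 distribution, gave a member median of 0.013, with 45 positive, or 57.0%. The share was 50.4% for all features and 50.2% for those in the brightest decile. Centring each array on its median gave 0.085 for members and 0.040 for all features, with 64 members positive, or 81.0%. Here 60.7% of all features and 75.6% of those in the brightest decile were positive. With quantile normalization 5 members had a higher and 6 a lower mean at an unadjusted p under 0.05, or 13.9% of members, against 14.1% of all features. The authors' deposited table gave 4 higher and 8 lower, or 15.2% of members, against 16.4%. No member passed the adjusted threshold in any of them.

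**Figure D4:**
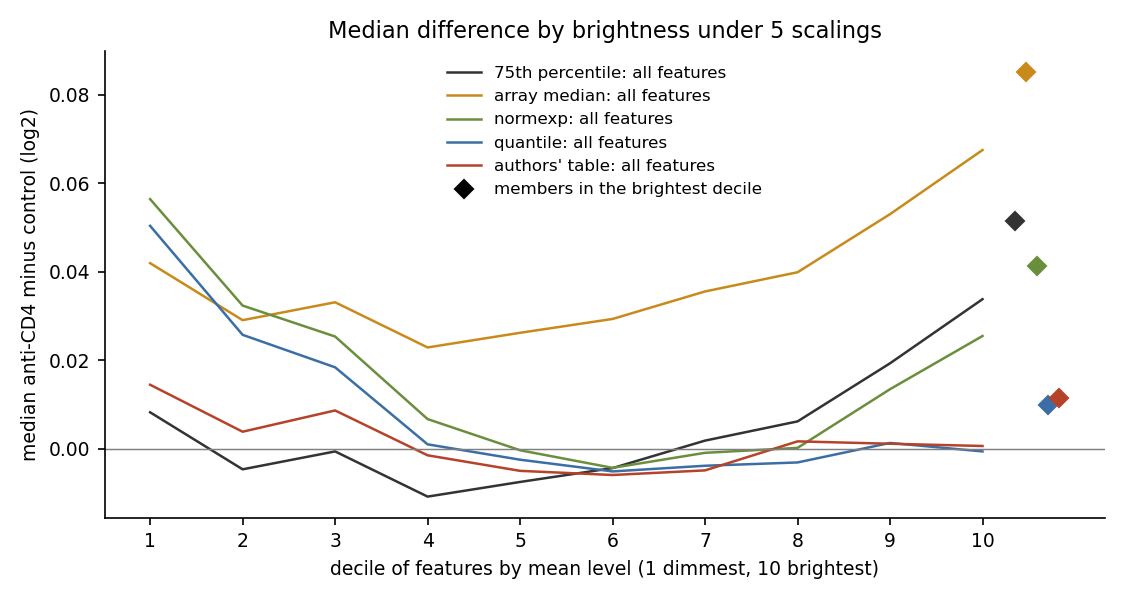
Median difference in log2 value, anti-CD4 minus control, of all 23624 features in deciles of mean level under 5 scalings (lines), and of the 76 members in the brightest decile under the same scaling (diamonds, set to the right of it and in the colour of their line). Bright features lie above 0 with the 75th percentile, normexp and array median scalings and near 0 with quantile normalization and the authors' table, and the members follow, at 0.051, 0.041, 0.085, 0.0098 and 0.011. Dim features also lie above 0 in some scalings. The dimmest decile is at 0.056 with normexp and 0.050 with quantile normalization, and with array medians all deciles lie between 0.023 and 0.067.

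Measures of the arrays themselves were compared as well, and their part in the member differences was not tested. The median signal was 56.7 ± 0.677 in anti-CD4 arrays and 63.1 ± 7.64 in control arrays (SD, n = 4 each, exact permutation p = 0.0286, two-sided, adjusted p = 0.0667 over 7 measures). The slope of the spike-in standards was 1.013 ± 0.00617 in anti-CD4 arrays and 1.002 ± 0.00583 in control arrays (exact permutation p = 0.0571, adjusted p = 0.10). The median coefficient of variation of repeated spots was 3.99% ± 0.107 in anti-CD4 arrays and 3.23% ± 0.115 in control arrays (exact permutation p = 0.0286, adjusted p = 0.0667). Outlier-flagged spots numbered 159.2 ± 22.4 in anti-CD4 arrays and 108.8 ± 10.996 in control arrays (exact permutation p = 0.0286, adjusted p = 0.0667). The other 3 measures had larger p-values. The 75th percentile of the signal was 744.6 ± 23.7 in anti-CD4 arrays and 809.6 ± 90.6 in control arrays (exact permutation p = 0.286), and 52.96% ± 1.34 of probes were well above background in anti-CD4 arrays and 52.8% ± 1.25 in control arrays (exact permutation p = 0.80). The signal of the choroid plexus gene Ttr ran from 1675 to 274131 in anti-CD4 arrays and from 538 to 264038 in control arrays (exact permutation p = 0.80). The smallest p that 70 assignments allow is 0.0286. All arrays lay on 1 slide, with anti-CD4 arrays in the upper row and control arrays in the lower, so the position on the slide and the antibody cannot be told apart.

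Probes of the same gene gave a measure of how far a member's difference depends on the probe. Of the 184 tested member probes 126 had a positive difference, or 68.5%, against 51.1% of all tested probes. At an unadjusted p under 0.05, 7 were higher and 5 lower in anti-CD4 samples, or 6.52%, against 13.0% of all tested probes. Over all tested probes the shares were 5.98% higher and 6.99% lower. More than 1 probe was tested for 61 genes. All probes were positive for 27 of them, all negative for 7, and of both signs for 27. The median range between probes of a gene was 0.090, and the largest was 0.38, for Rpl17, whose 7 probes ran from -0.22 to 0.16.

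The pairs printed above differed as follows. For Rpl7a the brightest probe gave 0.14 (SE 0.075) and the probe at the same position with 6 other bases gave 0.073 (SE 0.073). For Rplp0 the brightest probe gave 0.059 (SE 0.10) and the other -0.11 (SE 0.089). For Rps29 they gave 0.084 (SE 0.079) and 0.097 (SE 0.079). The 2 probes differed in sign in the Rplp0 pair alone, and probes of a pair were not tested against each other. Of all tested probes, 1 of Rplp0 was positive and 2 were negative. All 3 of Rps29 and all 4 of Rpl7a were positive.

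Rpl30 had the most negative member probe. In the probe printed first, anti-CD4 samples had 5.28, 5.12, 5.22 and 5.32, against 5.42, 5.54, 5.51 and 5.40 in control samples. The groups did not overlap, and the difference was -0.23 (SE 0.070) with a limma adjusted p of 0.263, while the brightest Rpl30 probe gave -0.15 and the remaining probe 0.066. Rps15, a small subunit protein, had the most positive member probe. Its values were 5.22, 5.14, 5.003 and 5.31 in anti-CD4 samples, against 4.91, 4.85, 5.005 and 4.94 in control samples. Anti-CD4 sample 3 lay just below control sample 3, so the groups overlapped. The difference was 0.24 (SE 0.080) with a limma adjusted p of 0.286, and the brightest Rps15 probe gave 0.11 (SE 0.080).

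For Rps16 the brightest probe gave 0.00030 (SE 0.064) and the other probes 0.096 and 0.23. A second probe of Rpl23a, next to the brightest on chromosome 11, gave -0.19 (SE 0.070) beside -0.15, so both Rpl23a probes were negative. The Rps6 probes printed gave -0.10 (SE 0.069) for the brightest and -0.14 (SE 0.073) for the other, and the remaining Rps6 probe gave 0.0089. The other probe of Rps18 gave 0.010 beside -0.14, that of Rpl35 0.055 beside 0.18 and that of Rps28 -0.015 beside -0.11. Rps27a probes ran from -0.18 to 0.076. The 3 Rpl36 probes, which the files place on chromosomes 11, 5 and X, gave 0.047 to 0.21. For 14 genes the files place the probes on more than 1 chromosome, and 19 member probes carry an accession of another gene, so such probes may read more than 1 locus. Whether a position in the files is that of the gene itself was not checked. This holds also for genes whose probes all lie on 1 chromosome.

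**Figure D5:**
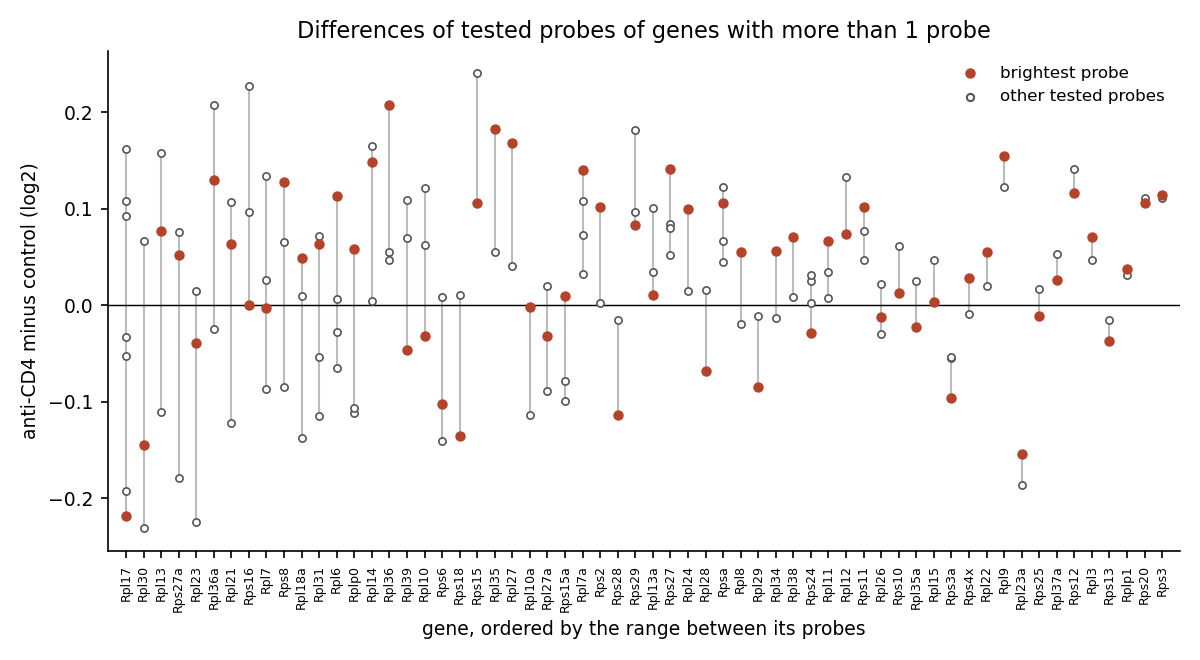
Difference in log2 value, anti-CD4 minus control, of every tested probe of 60 of the 61 ribosomal protein genes with more than 1 tested probe, ordered by the range between probes. Filled points are the brightest probe, which stands for the gene, open points are the others, and grey lines join a gene's lowest and highest probe. Rpl17 has the widest range, from -0.22 to 0.16.

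The base composition of the probes was set beside their differences. The GC content of the 184 tested member probes ran from 26.7% to 55.0% with a median of 45%. The correlation of GC content and difference across these probes was -0.069 (Pearson) and -0.11 (Spearman), as a description, since the probes share arrays and genes. The 42 probes over the median GC had a median difference of 0.045, and the 142 others had 0.032.

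Promoters are shown as a description of the members, and their part in the common movement between arrays was not tested. Windows from 250 bases before to 50 after the start site were taken from RefSeq (GRCm38.p6), and 61 of the 82 members matched by symbol. Below, 45 bases before and 15 from the start site on are printed for 2 large subunit members with positive differences and 2 small subunit members with negative ones, so that subunit and sign coincide here, and capitals mark a run of at least 5 pyrimidines across the start site.
Rpl35, chr2:39005117-39005176, minus strand: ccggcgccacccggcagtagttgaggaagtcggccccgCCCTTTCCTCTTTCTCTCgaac
Rpl41, chr10:128549154-128549213, minus strand: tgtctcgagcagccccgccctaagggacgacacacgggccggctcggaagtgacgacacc
Rps6, chr4:86857353-86857412, minus strand: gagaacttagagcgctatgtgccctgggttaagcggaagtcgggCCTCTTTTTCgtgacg
Rps28, chr17:33824548-33824607, minus strand: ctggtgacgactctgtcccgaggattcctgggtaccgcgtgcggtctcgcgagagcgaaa
Rpl35 and Rps6 have such a run and the annotated starts of Rpl41 and Rps28 do not.

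A C at the annotated start site followed by at least 4 pyrimidines was found in 13 of 61 members, or 21.3%, against 3.01% of all 27025 genes with a window. Whether transcripts in this tissue begin at the annotated site was not checked, so a member counted without the tract may still carry it. A run of 8 or more pyrimidines within 10 bases of the start was found in 47.5% of members and 16.1% of all genes. Of 3 motifs searched on both strands, CCGGAAG, the core bound by ETS factors such as GABP, was found in 39.3% of members and 9.93% of all genes. AAGATGG, a YY1 motif, was found in 16.4% and 7.28%, and GGGCGG, the GC box, in 60.7% and 38.2%. On its other strand CCGGAAG begins with pyrimidines, so it can overlap a tract. By subunit, CCGGAAG was found in 14 of 38 large and 10 of 23 small subunit genes. Members with the tract at the annotated start had a median difference of 0.013 over 13 tested genes, and those without it there 0.057 over 45. With CCGGAAG the median was 0.064 over 23 genes, and without it 0.051 over 35.

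Other genes of the pathway were described from lists. Ribosomal proteins outside the name pattern included Fau, which is made as a fusion with a ubiquitin-like protein, Rpl36al and the scaffold Gnb2l1 (Rack1). Their differences were 0.034 (SE 0.078), 0.081 (SE 0.082) and 0.062 (SE 0.091), and none passed the test. Rpl36al had values of 4.58, 4.39, 4.39 and 4.56 in anti-CD4 samples, against 4.24, 4.43, 4.499 and 4.43 in control samples. As in the members, anti-CD4 samples 1 and 4 were high and control sample 1 was low.

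Among 21 translation factors and other messages with a 5′ pyrimidine tract, 0 passed the adjusted threshold, 2 were higher and 1 lower at an unadjusted p under 0.05, and the median difference was 0.043 with 14 positive. Over all features 6.17% were higher and 6.82% lower at this p, and 51.8% were positive. Eef2, the elongation factor that moves the ribosome along the message, had 5.83, 5.77, 5.87 and 5.95 in anti-CD4 samples, against 5.55, 5.65, 5.62 and 5.74 in control samples. The groups did not overlap, and the difference was 0.22 (SE 0.068) with a limma adjusted p of 0.270. Eif2s2, the beta subunit of initiation factor eIF2, differed by 0.22 (SE 0.085) and Eif3e, a subunit of eIF3, by -0.19 (SE 0.082).

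Of 50 ribosome biogenesis and assembly genes, all 50 tested, 0 passed the adjusted threshold, 2 were higher and 2 lower at an unadjusted p under 0.05, and the median was 0.011 with 28 positive. The shares of all features at this p were 6.17% higher and 6.82% lower. Rrp12, which acts in the maturation and export of pre-ribosomes, differed by 0.27 (SE 0.093), and Ncl, the nucleolar protein nucleolin, by 0.14 (SE 0.054). Bop1, which acts in large subunit maturation, differed by -0.18 (SE 0.068), and Gnl3, the nucleolar GTPase nucleostemin, by -0.18 (SE 0.067). The groups did not overlap for any of these 4 genes, and their limma adjusted p lay between 0.301 and 0.332. Over all features, groups did not overlap for 8.19%.

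Of 16 genes of RNA polymerase I and its factors, which make ribosomal RNA, 15 were tested, none had an unadjusted p under 0.05, and the median was 0.0057. Of 18 genes of the mTORC1 arm and regulators of these messages, 2 were lower at an unadjusted p under 0.05 and none was higher, with a median of 0.043. All features had shares of 6.82% lower and 6.17% higher at this p. Mycn, a transcription factor that drives ribosome biogenesis in growing cells, had 0.0050, -0.094, 0.0097 and -0.12 in anti-CD4 samples, against 0.23, 0.43, 0.23 and 0.11 in control samples. The groups did not overlap, and the difference was -0.30 (SE 0.081) with a limma adjusted p of 0.248. Rps6kb2, a kinase of Rps6, differed by -0.21 (SE 0.077) with a limma adjusted p of 0.321. Mtor itself differed by 0.038 (SE 0.059).

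Markers of other cells and regions varied between the samples. For comparison with the counts below, 6.17% of all features were higher and 6.82% lower in anti-CD4 samples at an unadjusted p under 0.05. Neuronal and hippocampal markers were present on every array, with 13 of 13 well above background throughout. Of these, 8 had negative differences, with 1 higher and 2 lower at an unadjusted p under 0.05, and their summed level ranged from 472.8 to 530.4 in anti-CD4 samples and from 464.8 to 509.8 in control samples. Of 7 tested dentate granule neuron markers of 8 listed, 6 had negative differences, with 1 higher and 2 lower at an unadjusted p under 0.05 and a median of -0.30. Their summed level ranged from 6.61 to 8.48 in anti-CD4 samples and from 6.14 to 8.41 in control samples. The summed level of 12 choroid plexus markers, as ratios to the 75th percentile, ranged from 28.6 to 625.3 in anti-CD4 samples and from 23.2 to 499.6 in control samples, low in anti-CD4 sample 1 and control samples 2 and 3. That of 9 tested hypothalamic and amygdala markers of 14 ranged from 30.6 to 66.0 in anti-CD4 samples and from 27.6 to 32.7 in control samples, and 7 of the 9 had a higher mean in anti-CD4 samples at an unadjusted p under 0.05. Of 5 tested red blood cell markers of 8 listed, 5 had a higher mean in anti-CD4 samples at an unadjusted p under 0.05, with summed levels of 114.2 to 134.0 in anti-CD4 and 74.0 to 109.9 in control samples. By the same threshold 5 of 8 endothelial markers had a higher mean and 4 of 10 myelin markers a lower mean in anti-CD4 samples, while 0 of the tested choroid plexus, astrocyte, microglia and T lymphocyte markers passed it. Cd4 differed by 0.019 (SE 0.096), and 4 of 9 T lymphocyte markers were tested. The part of these signals in the member differences was not tested.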

How the data were processed

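The authors deposited scanner files of one-colour Agilent arrays (design 028005, Cy3) made with Feature Extraction 10.7.3.1, per the file headers. Their processed signal is an intensity, background-subtracted within each array, per the file headers. A second deposited table holds the authors' log2 values; limma is named in the submitters' processing notes, with settings not given here. Positions are on mm9, per the file headers.

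Control spots and outlier-flagged spots were left out, spots of a probe averaged, and log2 values taken minus each array's 75th percentile. Probes without a gene name stood alone. Groups, from the sample titles, were compared over 23624 features with limma 3.58.1 in R 4.3.3 (lmFit, eBayes, two-sided, Benjamini-Hochberg, threshold 0.05), after tests on simulated data. No probe was saturated, 51.1% to 54.3% of probes per array were well above background, and the number of arrays limits the precision.

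The members and lists were chosen with earlier results of these data known. Named genes were up to 12 per direction with an unadjusted p under 0.05 and groups that do not overlap, filled to 8 per direction by smallest p, plus 20 set members and up to 3 per direction of each list. A few genes that the rule names are not reported here. Rps14, Rps15, Rps16, Rps29, Fau and Mtor were named after their values were seen. Alternatives covered scaling, background, filters, probes, names, members, model options, the authors' table, each array left out and, added after seeing the data, centring on the members.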

Additional observations from a re-analysis of the deposited data

How the results depend on the processing

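No member passed the adjusted threshold of 0.05 under any alternative run, nor at 0.1. The number of members with a higher mean at an unadjusted p under 0.05, 4 as reported, was 2 with all probes and 1 with a replicate block, and 0 to 8 with single arrays left out. The number with a lower mean, 1 as reported, was 6 with quantile normalization, 0 with array medians, 3 with normexp, 0 with the mean of a gene's probes, 0 with the replicate block, 2 with trend and robust options and 8 with the authors' table. Centring on the median of the members, an alternative chosen after seeing the data, gave 2 higher and 6 lower. With both directions together, the share at this p was 3.66% of members, against 6.87% of all features, with all probes, and 1.27%, against 9.36%, with the replicate block. It was 10.1%, against 14.7%, with normexp and 7.59%, against 12.8%, with array medians. With the mean of a gene's probes it was 3.80%, against 12.5%. With single arrays left out it was 1.27% to 11.4% of members, against 9.28% to 15.8% of all features. The count of positive members, 56 of 79 as reported, ran from 43 to 64. With quantile normalization it was 43, or 54.4% of members, near the 51.0% of all features. The medians changed by more than 1.5 times. Over all members the median, 0.052 as reported, was 0.011 with quantile normalization, 0.013 with the authors' table, 0.085 with array medians and 0.0067 when centred on the members, and that of the large subunit, 0.049 as reported, was 0.0056 after quantile normalization and 0.0023 from the authors' deposited values. The SD of the member median between arrays within groups was 0.0801 in the reported scaling. It does not measure a change between scalings of the same arrays.

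Same-numbered samples had correlations of their deviations of -0.45, -0.29, -0.31 and 0.30, and differently numbered samples of -0.41 to 0.45. Same-numbered samples also share a column of the slide. So few correlations cannot decide whether the numbers pair the samples. The block left every difference as it was, since each group holds each number once.

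Of the 30 named members, none passed the threshold, and some differences near 0 changed sign. With quantile normalization Rps27a was -0.0027, Rplp1 -0.021, Rps4x -0.0032, Rpl22l1 -0.00065, Rplp2 -0.035 and Rpl13a -0.029. With the authors' table Rpl11 was -0.0086, Rps27a -0.054, Rplp1 -0.027, Rpl22l1 -0.049, Rplp2 -0.072 and Rpl13a -0.037. With normexp Rpl22l1 was -0.037, Rplp2 -0.0054 and Rpl13a -0.011. With the mean of probes Rps27a was -0.017, Rplp0 -0.053 and Rpl10 0.050. Rpl10 was 0.0020 with array medians and 0.0056 with array weights. Centred on the members, Rplp1 was -0.0074, Rps4x -0.017, Rpl22l1 -0.016, Rplp2 -0.027 and Rpl13a -0.034. With single arrays left out, Rpl5 ran between -0.0087 and 0.092, Rpl22 between -0.014 and 0.11, Rplp1 between -0.027 and 0.071, Rps4x between -0.016 and 0.058, Rpl22l1 between -0.031 and 0.065, Rpl10 between -0.093 and 0.021, Rplp2 between -0.016 and 0.049 and Rpl13a between -0.020 and 0.033. The cause of these changes was not tested.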

Other observations

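After each array had been centred on the median of its tested members, a setting chosen after seeing the data, 0 members passed the adjusted threshold in limma and 8 had an unadjusted p under 0.05. That is 10.1% of members, under the 12.5% of all features in the same setting. Of these, Rpl36 and Rpl35 had higher means in anti-CD4 samples, by 0.16 and 0.14. Lower means included Rpl17 at -0.26, Rpl23a at -0.20, Rpl30 at -0.19, Rps28 at -0.16 and Rps6 at -0.15. The members set the zero of this scale, so these values say only how a member stood to the others.

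With gene names updated through RefSeq by accession, 81 members were tested in place of 79. The added genes were Rpl32l and Rps4l, which the files name differently.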
